A study of Mus musculus with 12 samples.

Results

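The genes described here are 9 mouse C-type lectin receptors of myeloid cells: Clec4d, Clec4e, Clec4n, Clec4a1, Clec4a2, Clec4a3, Clec7a, Clec12a and Clec5a. They were chosen by symbol, as pattern-recognition lectins of the Dectin and Clec4 groups, and all 9 were found among the 32190 symbols of both deposited count tables. All 9 held enough counts to be tested in both. The counts come from 12 RNA-seq libraries in 6 groups of 2. Tumoral dendritic cells (DCs) labelled late (day 14) and early (day 7) had been sorted from MC38 tumors in mice carrying the Zbtb46-Tdtomato reporter, with the genotype label WT. MC38 cells are a mouse colon carcinoma line and Zbtb46 is a transcription factor gene of conventional DCs. Bone marrow-derived DCs (BMDCs) were labelled Pde5 knockout or WT, and each genotype had libraries with LPS (200 ng/ml for 12 h) and without stimulation. All BMDC libraries are given a time of 9 days. LPS, bacterial lipopolysaccharide, activates Toll-like receptor 4. The labels name no Cre, promoter, clone, age or pooling of animals. Whether both libraries of a group are from different animals or cultures is not stated, so a p-value measures only the spread between these samples, which may be technical.

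C-type lectin receptors of myeloid cells bind carbohydrate or lipid patterns on microbes and molecules from damaged cells. Activating members signal through the kinase Syk and the adaptor Card9 to NF-kB and to cytokine genes: Clec7a (Dectin-1, a receptor for fungal beta-glucan) carries its own signalling motif, Clec4e (Mincle), Clec4d (MCL) and Clec4n (Dectin-2) use the adaptor chain Fcer1g, and Clec5a (MDL-1) uses Tyrobp and Hcst. Clec12a and Clec4a2 (DCIR) carry an inhibitory motif that recruits phosphatases, whereas Clec4a3 and Clec4a1 are relatives of Clec4a2 that lack it. In mouse macrophages Clec4e is known as a gene that Toll-like receptor ligands induce through the transcription factor Cebpb.

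All 9 genes lie on chromosome 6 (mm10, positions from GENCODE). From 122921848 to 123289870, a stretch of 368.0 kb holds Clec4a1, Clec4a3, Clec4a2, Clec4n, Clec4d and Clec4e. A second stretch, from 129342691 to 129472779, holds Clec12a and Clec7a, and Clec5a lies alone at 40574894 to 40585821. Clec4d (plus strand) and Clec4e (minus strand) are neighbours that point towards each other. Clec4a2 overlaps 1 annotated pseudogene, with no shared exon. Clec4a1, Clec4a2 and Clec4a3 are close paralogs, so reads may be shared or lost between them, which makes their values less certain.

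Library totals were 14.2 to 19.3 M counts in tumoral DCs and 16.1 to 19.7 M in BMDCs, and levels are given in CPM, counts scaled by the library total. All 10 genes listed as markers of conventional DCs were counted in every library. The tumoral libraries also held macrophage genes at high levels: their 13 listed genes summed to 8343 to 17684 CPM, with C1qa at 839 to 2647 CPM. Flt3, a single gene of the DC list, had 70.4 to 130.8 CPM. Like C1qa, it was named after its values were seen and does not stand for its list. The sum of the 10 DC genes is not given here, so these values do not weigh macrophage RNA against DC RNA. Pde5a, the gene named by the knockout label, did not separate the labels. It had 1.27 and 2.56 CPM in Pde5 knockout-labelled BMDCs with LPS, against 2.91 and 1.15 CPM in WT BMDCs with LPS. Without stimulation it had 2.54 and 3.10 CPM under the knockout label, against 3.26 and 2.29 CPM in WT. Which part of Pde5a the allele removes is not given in the sources used here, so the group is called by its label throughout. The unstimulated Pde5 knockout-labelled libraries held high levels of Il1b and Nos2, which LPS induces: Il1b had 687.6 and 466.4 CPM in them, against 44.5 and 41.7 CPM in unstimulated WT BMDCs. In the WT libraries with LPS, Il1b had 594.7 and 668.7 CPM.

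LPS in WT BMDCs raised 4 of the 9 lectin genes, lowered 1 and left 4 short of the threshold, an adjusted p of 0.05 over all genes tested (edgeR quasi-likelihood test, Benjamini-Hochberg). Clec4e rose most, and its neighbour Clec4d fell. Among all 13072 genes tested, 20.0% were called higher and 17.6% lower, 37.6% in either direction, so the members' count stands against a broad response. Scaling by library size alone, which moved the median of all genes to -0.2282, against -0.0242 as reported, gave 1689 genes higher and 3728 lower, against 2609 and 2301 as reported, and turned the direction of 0 of the 5 called members but lost the call of Clec4a3 (adjusted p = 0.104). The median log2 fold change was 0.41 over the 9 genes and -0.02 over all genes. In bulk RNA, fewer cells of a type and less RNA per cell cannot be told apart.

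Clec4e (Mincle) had 110.1 and 86.8 CPM in WT BMDCs with LPS, against 20.9 and 30.8 CPM in unstimulated WT BMDCs. Both LPS libraries lay above both unstimulated ones, a fold change of 4.4 (log2 2.14, SE 0.221, adjusted p = 0.000525 by edgeR). Clec5a (MDL-1) was scarcer and moved the same way, with 12.1 and 8.08 CPM with LPS, against 5.69 and 4.47 CPM without (log2 fold change 1.19, SE 0.254, adjusted p = 0.00738). Its groups did not overlap, but the call was lost without WT replicate 2 (adjusted p = 0.0512) and without WT LPS replicate 1 (0.0599). Clec4d (MCL), which forms receptor complexes with Mincle and carries no signalling motif of its own, had 63.9 and 52.2 CPM with LPS, against 90.7 and 101.0 CPM without. It fell by 0.52 on the log2 scale (SE 0.116, adjusted p = 0.0089), and the groups did not overlap. Its adjusted p was 0.053 without WT replicate 2 and 0.0622 without WT LPS replicate 2. The counts of Clec4e per count of Clec4d were 1.72 and 1.66 with LPS, against 0.23 and 0.305 without.

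The promoter windows of Clec4e, Clec5a and Clec4d are shown because the first pair rose and the last fell under the same stimulus. They run from 250 bases before to 50 bases after the RefSeq start (GRCm38.p6, the assembly of mm10), in the gene's own direction. Capitals mark matches, on either strand, to PU.1 (GAGGAA), C/EBP (TTGCNNAA), AP-1 (TGANTCA), an interferon-gamma activated site (TTCNNNGAA) or the NF-kB consensus.
Clec4e (chr6:123289822-123290121, minus strand): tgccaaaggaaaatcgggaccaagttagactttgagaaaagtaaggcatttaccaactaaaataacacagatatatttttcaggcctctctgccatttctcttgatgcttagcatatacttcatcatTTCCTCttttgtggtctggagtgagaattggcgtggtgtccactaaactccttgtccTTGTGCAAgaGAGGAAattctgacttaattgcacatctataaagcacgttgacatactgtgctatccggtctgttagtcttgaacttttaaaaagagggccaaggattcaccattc
Clec5a (chr6:40585756-40586055, minus strand): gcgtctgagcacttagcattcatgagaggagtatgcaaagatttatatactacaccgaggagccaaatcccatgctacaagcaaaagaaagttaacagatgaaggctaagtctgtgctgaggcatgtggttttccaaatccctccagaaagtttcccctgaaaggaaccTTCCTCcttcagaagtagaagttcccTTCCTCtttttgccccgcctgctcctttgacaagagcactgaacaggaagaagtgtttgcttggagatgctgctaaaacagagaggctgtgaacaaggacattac
Clec4d (chr6:123261857-123262156, plus strand): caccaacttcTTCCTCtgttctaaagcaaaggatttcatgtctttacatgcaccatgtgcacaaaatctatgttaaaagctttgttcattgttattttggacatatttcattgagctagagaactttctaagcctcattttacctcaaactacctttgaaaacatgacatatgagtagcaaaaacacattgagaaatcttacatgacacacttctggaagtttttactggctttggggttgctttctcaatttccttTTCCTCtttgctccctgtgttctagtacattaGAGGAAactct
The Clec4e window held a C/EBP match (TTGTGCAA) that starts at -66 from the start site, and PU.1 matches at -123 and -56. The Clec5a window held PU.1 matches at -81 and -55, and the Clec4d window at -240, 8 and 40; neither held a C/EBP match. RefSeq windows were found for 8 of the 9 members, 10 windows in all. Clec4a3 and Clec7a each gave overlapping windows, so the windows are not independent. The same PU.1 letters of Clec7a are counted in both of its windows. By gene, Clec4a2 alone among the members with a window had no PU.1 match. PU.1 letters were in 8 of these 10 windows, against 28.3% of all 32851 mouse windows, and C/EBP letters were in those of Clec4e and Clec12a, against 10.8% of all. AP-1 letters were in the windows of Clec12a and Clec4a2, against 7.81% of all, and the activated-site letters in that of Clec4a2, against 8.3%. The NF-kB consensus was in 0 of the members' windows, against 8.46% of all. A match is a description of letters, and says nothing of binding in these cells.

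Clec4a1 and Clec4a3, relatives of DCIR without an inhibitory motif, were also called higher with LPS in WT BMDCs. Clec4a1 had 52.2 and 57.2 CPM with LPS, against 25.6 and 41.7 CPM without (log2 fold change 0.91, SE 0.201, adjusted p = 0.00963). Clec4a3 had 28.9 and 25.0 CPM with LPS, against 17.1 and 22.4 CPM without (log2 fold change 0.65, adjusted p = 0.0296). The Clec4a3 call rested on single libraries: the adjusted p was 0.138 without WT replicate 1, 0.152 without WT LPS replicate 1 and 0.0558 without WT LPS replicate 2. The inhibitory receptors did not pass, with log2 fold changes of 0.21 for Clec4a2 (SE 0.237, adjusted p = 0.522) and 0.41 for Clec12a (SE 0.315, adjusted p = 0.342). Whether their LPS effects differ from those of Clec4a1 and Clec4a3 was not tested. Neither did Clec7a, at 295.7 and 227.9 CPM with LPS, against 248.3 and 215.2 CPM without (log2 fold change 0.38, adjusted p = 0.175). Clec4n varied as much between libraries of a group as between groups, at 85.5 and 139.2 CPM with LPS, against 67.8 and 156.4 CPM without (log2 fold change 0.21, SE 0.383, adjusted p = 0.695).

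**Figure D1:**
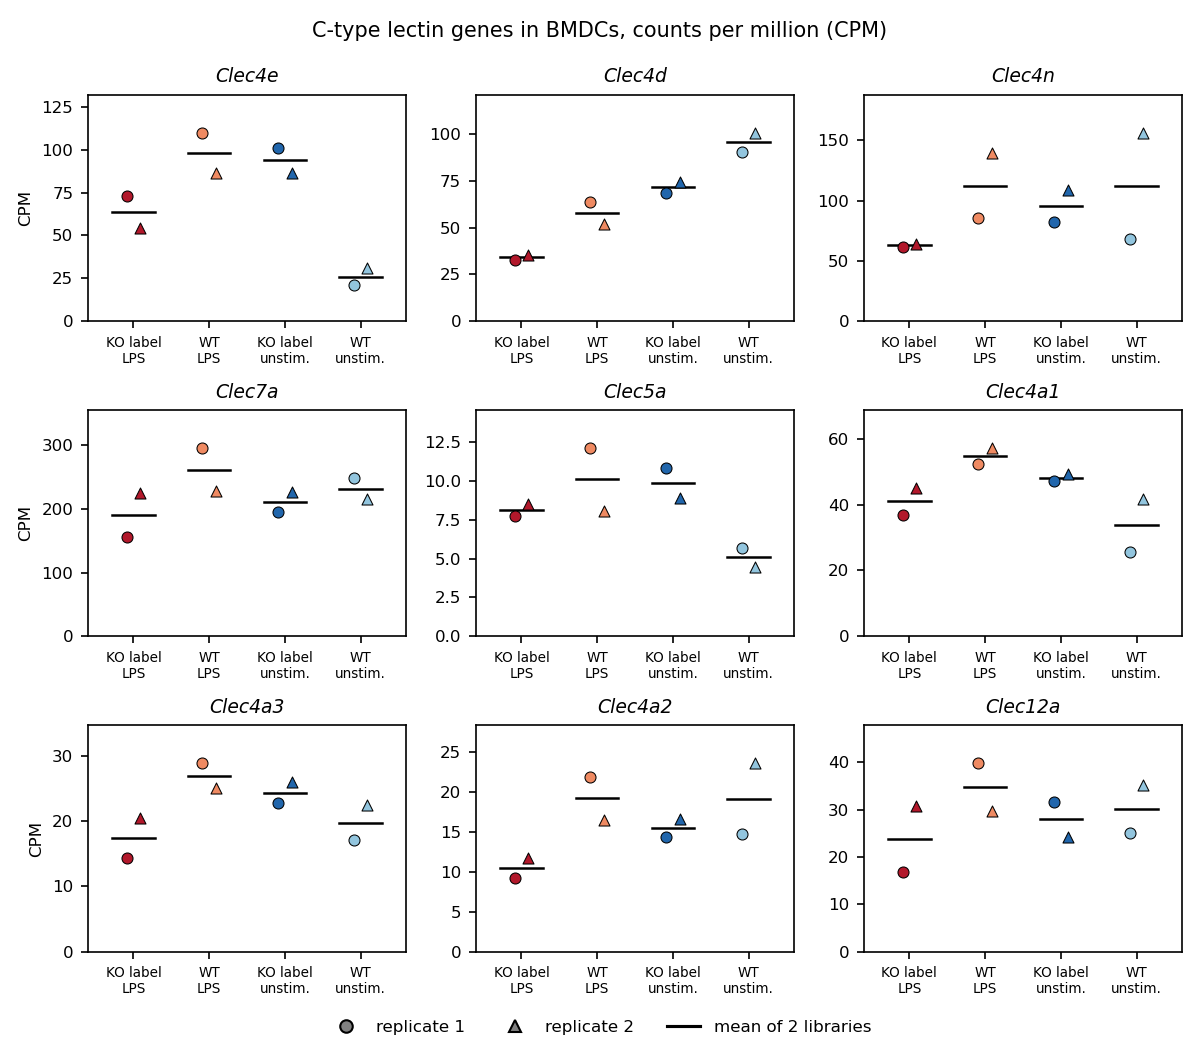
Levels in CPM (y axis, starting at 0) of the 9 lectin genes in BMDCs, 1 panel a gene, with a point for each library, circles for replicate 1 and triangles for replicate 2, and a line at the mean of both. Clec4e lies at 20.9 and 30.8 CPM in unstimulated WT and at 54.4 CPM or more in the other 6 libraries, whereas Clec4d is highest in unstimulated WT and lowest, at 32.9 and 35.3 CPM, under the knockout label with LPS.

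Without stimulation, Pde5 knockout-labelled BMDCs held more Clec4e and more Clec5a than WT BMDCs, and the other 7 genes did not pass. The background was 18.0% of genes called in either direction, 12.0% higher and 5.98% lower (1282 genes higher and 1301 lower with library size alone, against 1575 and 782 as reported). Clec4e had 101.0 and 86.7 CPM under the knockout label, against 20.9 and 30.8 CPM in WT. It was 3.92-fold higher (log2 1.97, SE 0.22, adjusted p = 0.00169 by edgeR), with no overlap. Clec5a had 10.8 and 8.89 CPM under the knockout label, against 5.69 and 4.47 CPM in WT (log2 fold change 1.06, SE 0.253, adjusted p = 0.024). That call was lost without WT replicate 2 (adjusted p = 0.134) and without knockout-label replicate 1 (0.172). Clec4a1 had 47.1 and 49.2 CPM under the knockout label, against 25.6 and 41.7 CPM in WT, and did not pass (log2 fold change 0.62, adjusted p = 0.0651). It passed without WT replicate 2 (0.0144), with DESeq2 (0.0264) and with limma-voom (0.047). Clec4d, at 68.8 and 74.5 CPM under the knockout label, against 90.7 and 101.0 CPM in WT, did not pass either (log2 fold change -0.32, adjusted p = 0.0902), except with library size alone (0.0411). The same unstimulated WT libraries serve as control here and for LPS in WT, so both comparisons share them. The counts of Clec4e per count of Clec4d were 1.47 and 1.16 under the knockout label, against 0.23 and 0.305 in WT.

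Under the knockout label, LPS gave no call among the 9 genes, and edgeR called 0% of all genes, with p under 0.05 in 21.4% of them and in 2 of the 9. DESeq2 called 793 genes, among them 1 of the 9 (Clec4d), and limma-voom 0. All 9 log2 fold changes were below 0, with a median of -0.40, against -0.02 over all genes. Clec4d had 32.9 and 35.3 CPM in knockout-labelled BMDCs with LPS, against 68.8 and 74.5 CPM without. The groups did not overlap, and the value lay at the threshold (log2 fold change -0.99, SE 0.118, adjusted p = 0.0502); the call was made without WT replicate 1 (0.0468), WT replicate 2 (0.0455) or knockout-label replicate 1 (0.0153). Clec4e had 73.0 and 54.4 CPM with LPS, against 101.0 and 86.7 CPM without, a difference short of the threshold (log2 fold change -0.49, SE 0.209, adjusted p = 0.231). Clec5a had 7.71 and 8.52 CPM with LPS, against 10.8 and 8.89 CPM without (log2 fold change -0.20, adjusted p = 0.665).

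Among BMDCs with LPS, the knockout label also gave no call among the 9 genes or among all genes (0% by edgeR, with p under 0.05 in 10.2% of genes; 150 genes by DESeq2, among them Clec4d, and 0 by limma-voom). All 9 log2 fold changes were below 0, with a median of -0.65, against -0.01 over all genes, and 5 of the 9 had an unadjusted p under 0.05. Clec4d had 32.9 and 35.3 CPM under the knockout label with LPS, against 63.9 and 52.2 CPM in WT with LPS (log2 fold change -0.79, SE 0.119, adjusted p = 0.166). Clec4a2 had 9.26 and 11.7 CPM under the knockout label with LPS, against 21.8 and 16.5 CPM in WT with LPS (log2 fold change -0.89, SE 0.244, adjusted p = 0.318). Neither gene's groups overlapped. Beside these values, the 13 macrophage genes summed to 874 and 1820 CPM under the knockout label with LPS, against 2456 and 1864 CPM in WT with LPS, and the 10 monocyte genes to 443 and 334 CPM, against 283 and 335 CPM. Their part in the result was not tested.

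The interaction asks whether LPS acted differently under the 2 genotype labels, and 1 of the 9 genes passed. The LPS effect on Clec4e was lower by 2.62 on the log2 scale under the knockout label (-2.62, SE 0.303, adjusted p = 0.00864 by edgeR). Its effects were -0.49 under the knockout label and 2.14 in WT. Of all genes 4.48% were called, 0.566% higher and 3.91% lower. All 9 values were below 0, with a median of -0.74, against -0.01 over all genes. The interaction and both previous comparisons with all 9 genes below 0 use the same knockout-labelled libraries with LPS. They are not separate observations. Clec5a (-1.39, adjusted p = 0.0623), Clec4a3 (-1.06, 0.0705) and Clec4a1 (-1.06, 0.0759) did not pass, and each passed when 1 library was left out: Clec5a without knockout-label replicate 2 (0.0477), Clec4a3 without knockout-label LPS replicate 2 (0.0408) and Clec4a1 without WT replicate 2 (0.0283). The remaining 5 genes had values of -0.44 to -0.74 and adjusted p of 0.141 or more. Beside this, the median interaction was -1.58 over 13 macrophage genes (1 called, Fcgr1 at -3.17; C1qa at -3.88 had an adjusted p of 0.0543), -0.95 over 10 mature DC genes (3 called lower) and 0.84 over 9 monocyte genes (1 called lower, Vcan at -3.01). The macrophage genes summed to 874 and 1820 CPM with LPS and 2644 and 2298 CPM without under the knockout label, and to 2456 and 1864 CPM with LPS and 2475 and 2039 CPM without in WT. Their part in the lectin values was not tested.

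Averaged over both stimulation states, the knockout label went with more Clec4e and less Clec4d. The log2 fold change was 0.66 for Clec4e (SE 0.15, adjusted p = 0.0334) and -0.55 for Clec4d (SE 0.0826, adjusted p = 0.00753), by edgeR. Of all genes 11.1% were called, 7.81% higher and 3.25% lower. The Clec4e average joins effects of opposite sign, 1.97 without stimulation and -0.65 with LPS, and its call was lost when any of 5 single libraries was left out (adjusted p of 0.0571 to 0.131). For Clec4d the effects were -0.32 and -0.79, and the call held in all 8 fits with 1 library left out.

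**Figure D2:**
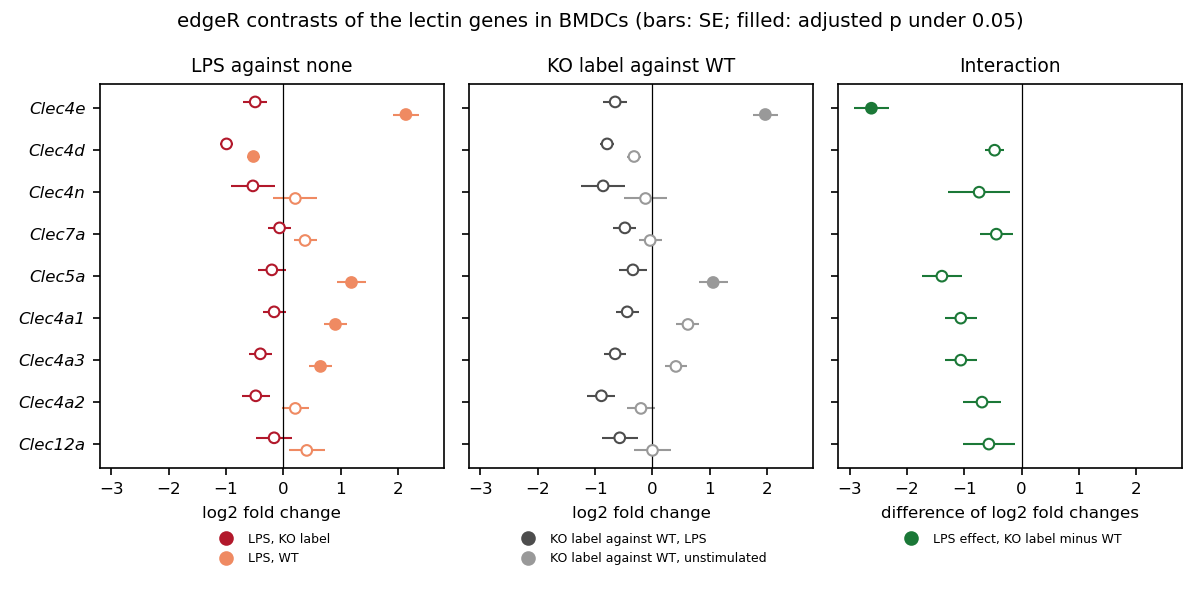
Log2 fold changes of the 9 lectin genes in BMDCs (x axis), with bars for the standard error and filled points where the adjusted p was under 0.05. The left panel shows LPS against none per genotype label, the middle panel the knockout label against WT per stimulation state, and the right panel the interaction. Clec4e stands at 2.14 for LPS in WT, 1.97 for the unstimulated knockout label and -2.62 for the interaction, and every open or filled point of the right panel lies below 0.

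The partners of these receptors moved less uniformly. With LPS in WT BMDCs the adaptor Tyrobp (DAP12), which Clec5a needs, fell, at 147.1 and 165.5 CPM with LPS, against 316.5 and 368.7 CPM without (log2 fold change -0.93, adjusted p = 0.000952 by edgeR). Fcer1g, the chain used by Mincle and Dectin-2, had a log2 fold change of -0.046 (adjusted p = 0.833), Syk of 0.23 (0.173) and Card9 of 0.075 (0.644). Of 23 genes of the Syk and Card9 axis, 9 rose and 7 fell, beside 20.0% of all genes called higher and 17.6% lower. The guanine nucleotide exchange factor Vav2 (0.88) and the ubiquitin ligase Traf6 (0.70) rose, while Nfatc2 (-1.77), a transcription factor, and Ppp3ca (-1.23), a calcineurin subunit that activates it, fell. Of 10 inhibitory phosphatases, adaptors and ligases, 2 rose (Dok1 0.70, Cblb 0.77) and 3 fell, led by the adaptor Dok3 (-1.23) and the lipid phosphatase Inpp5d (-0.94). The medians were 0.10 for the axis and 0.11 for the inhibitory list, against -0.02 over all genes.

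Of 16 tested cytokine and enzyme genes that Syk and Card9 can drive, 5 rose with LPS in WT BMDCs and 2 fell. Over all genes tested, 20.0% were called higher and 17.6% lower, so counts near these shares say nothing particular about a list. The cytokine Il1b (4.07) and the nitric oxide synthase Nos2 (5.85) rose, and the transcription factors Egr2 (-2.02) and Egr1 (-2.26) fell. Of 12 transcription factors reported to regulate Mincle or myeloid lectins, 6 rose and 1 fell. Relb (0.93) and Hif1a (0.92) rose, and Cebpa (-1.32) fell. Cebpb had 88.2 and 97.1 CPM with LPS, against 67.7 and 82.7 CPM without (log2 fold change 0.51, adjusted p = 0.019). Of 22 other tested lectin receptors, 4 rose and 8 fell. Ly75 (1.33) and Mrc2 (1.27), endocytic receptors, rose. Clec9a, a cDC1 receptor for dead cells, fell to 7.17 and 10.7 CPM with LPS, against 41.7 and 53.5 CPM without, and Cd209a had 0 counts in both LPS libraries, against 4.44 and 11.2 CPM without.

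Without stimulation, the knockout label went with lower Tyrobp (log2 fold change -0.55, adjusted p = 0.0179 by edgeR). In the Syk and Card9 axis 4 genes were higher and 3 lower, among them Vav2 (0.53), Fyn (0.89), Ppp3ca (-0.75) and Nfatc2 (-0.98). The shares over all genes were 12.0% higher and 5.98% lower. Of the inhibitory list 2 were higher (Dok1 0.46, Cblb 0.59) and 1 lower (Inpp5d -0.61). Il1b (3.85) and Nos2 (8.13) led the 4 higher output genes, with 0 lower. Of the regulators 6 were higher and 0 lower, including Hif1a (0.94), Nfkb1 (0.76) and Cebpb (0.75). Cebpb had 124.8 and 109.5 CPM under the knockout label, against 67.7 and 82.7 CPM in WT (adjusted p = 0.0082). Of the other lectins 3 were higher and 2 lower, with Olr1, a receptor for oxidized lipoprotein, at 1.90, Ly75 at 0.99, Clec9a at -1.78 and the mannose receptor Mrc1 at -1.11. Fcer1g (0.29, adjusted p = 0.212), Syk (0.21, 0.26) and Card9 (0.12, 0.492) did not pass.

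Among the output genes the interaction was called, always lower, for Il1b (-3.97), Nos2 (-7.07) and Il6, and among the regulators, also lower, for Cebpb (-1.04) and Hif1a (-0.99). It was called for 0 of the adaptors, inhibitory genes and other lectins, beside 4.48% of all genes. On average over both states the axis had 2 genes higher under the knockout label (Malt1 0.56, Fyn 0.53) and 3 lower, among them Ppp3ca (-0.40) and Vav1 (-0.36). The shares over all genes were 7.81% higher and 3.25% lower. Tyrobp (-0.33) and Inpp5d (-0.43) were the single calls of their lists. The outputs had 3 higher (Il1b 1.86, Nos2 4.59 and Il6) and 2 lower (Tnf -0.85, Egr2 -1.46). The regulators had 3 higher (Nfkb1 0.47, Irf4 0.41 and Hif1a) and 2 lower (Irf5 -0.34, Spi1 -0.41), and the other lectins had 1 higher (Ly75 0.63) and 2 lower (Clec9a -1.12, Mrc1 -0.95). For LPS under the knockout label and for the knockout label with LPS, 0 of the 86 tested genes of the 6 lists were called by edgeR. An unadjusted p under 0.05 was found for 34 in the first comparison and 12 in the second, beside 21.4% and 10.2% of all genes. DESeq2 called 18 and 5, and limma-voom called 0 in both. The gene of the lists with the smallest p was Dok3 in the first (-0.92, adjusted p = 0.0502) and Tnf in the second (-1.19, 0.166).

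Markers of other cell states moved with these comparisons. Of all genes tested, 20.0% were called higher and 17.6% lower with LPS in WT, and 12.0% higher under the unstimulated knockout label. Of 10 genes of mature migratory DCs, 8 rose with LPS in WT BMDCs, and 6 were higher under the unstimulated knockout label. Their sums were 21908 and 23424 CPM under the knockout label with LPS and 22727 and 25607 CPM in WT with LPS. Without stimulation the sums were 22110 and 19089 CPM under the knockout label, against 13072 and 11395 CPM in WT. Neutrophil genes summed to 63 and 72 CPM in WT with LPS, against 160 and 245 CPM in WT without, and 7 of 11 tested fell; their defining gene Ly6g was at 0 in 7 of the 8 BMDC libraries. Monocyte genes had 2 calls higher (Vcan and Ms4a4c) and 4 lower with LPS in WT, and macrophage genes 6 higher and 2 lower. The part of these cells in the lectin results was not tested.

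In the genome around the members, 3 further lectin genes were called with LPS in WT BMDCs, each lower: Clec9a (-2.21, adjusted p = 0.000396 by edgeR) and Clec1a (-2.62, 0.0106), which lie between Clec12a and Clec7a, and Clec4b1 (-1.73, 0.0337), which lies between Clec4a3 and Clec4a2. In each stretch 3 such genes were tested, and 37.6% of all genes were called, 17.6% lower. The others, Clec4a4 (0.35, adjusted p = 0.392), Clec4b2 (0.78, 0.341) and Clec1b (-0.46, 0.705), did not pass. Clec9a was also lower under the unstimulated knockout label (-1.78, 0.00181) and on average (-1.12, 0.00649). Clec1b and Clec9a overlap at their ends on the same strand, so their counts are less certain.

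None of the 9 genes passed the test between late and early tumoral DCs, and 0.0230% of all 13040 genes tested were called (3 genes, by edgeR). The 9 had 0 genes with an unadjusted p under 0.05, against 11% of all genes tested. DESeq2 and limma-voom called 0 of the 9. Over all genes DESeq2 called 311 and limma-voom 0. Clec4n had 282.6 and 310.2 CPM in late libraries, against 52.8 and 222.7 CPM in early ones (log2 fold change 1.15, SE 0.763, adjusted p = 0.633). Clec4d had 228.6 and 162.1 CPM in late libraries, against 44.3 and 153.3 CPM in early ones (log2 fold change 1.02, SE 0.66, adjusted p = 0.621). Both genes were higher in each late library than in either early one, but by less than the early libraries differed. Clec5a had 57.2 and 36.3 CPM late, against 18.1 and 37.6 CPM early (log2 fold change 0.81, adjusted p = 0.54). Clec4e had 283.5 and 146.0 CPM late, against 77.4 and 449.2 CPM early (log2 fold change -0.28, SE 0.994, adjusted p = 0.943), and both late libraries lay between the early ones. The other genes had log2 fold changes of -0.20 to 0.075, with a median over the 9 of -0.09, against 0.01 over all genes.

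The early libraries differed from each other by more than the groups did, in opposite directions for different receptors. The activating receptors were higher in early replicate 2 than in early replicate 1: Clec4e 5.80-fold, Clec7a 5.13-fold, Clec4n 4.22-fold, Clec4d 3.46-fold and Clec5a 2.08-fold. Clec7a, for example, had 952.6 CPM in replicate 2, against 185.7 CPM in replicate 1. The DCIR group and Clec12a were higher in early replicate 1 instead: Clec4a1 1.92-fold, Clec4a2 1.77-fold, Clec4a3 1.55-fold and Clec12a 1.45-fold. These are ratios of 1 library to 1 library, with no test. Without early replicate 2, 5 genes were called higher in late tumors (Clec4n 2.70, Clec4d 2.34, Clec7a 1.70, Clec4e 1.67 and Clec5a 1.57 on the log2 scale). Without early replicate 1, 2 were called lower (Clec4e -1.07 and Clec7a -0.85). Without either late library, 0 were called. Each such fit leaves 1 library in a group, which is assumed to vary like the other group's.

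**Figure D3:**
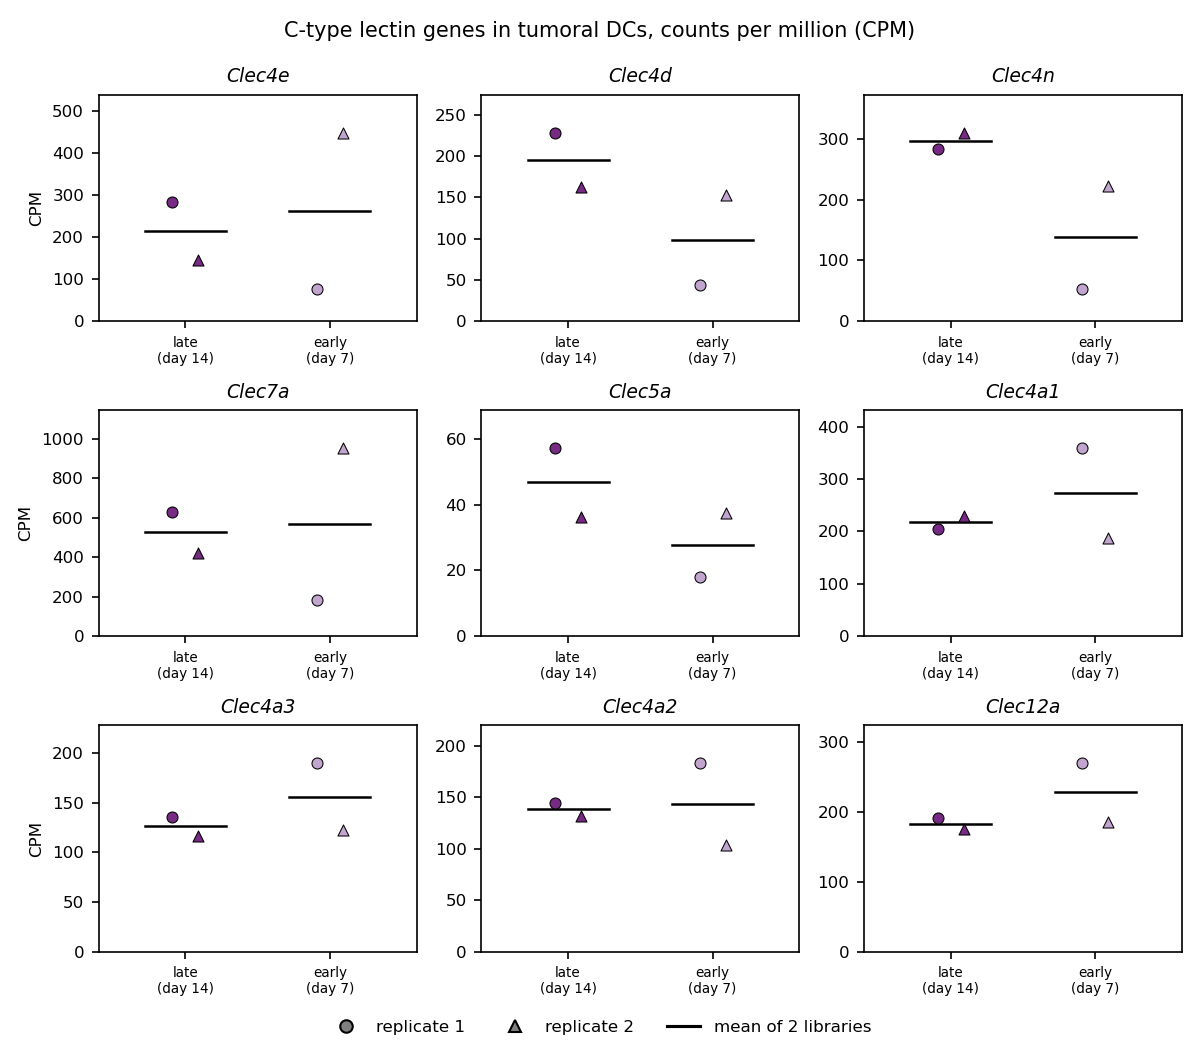
Levels in CPM (y axis, starting at 0) of the 9 lectin genes in the late and early tumoral DC libraries, with circles for replicate 1, triangles for replicate 2 and a line at the mean of both. The early triangles lie above the early circles for Clec4e, Clec4d, Clec4n, Clec7a and Clec5a and below them for Clec4a1, Clec4a2, Clec4a3 and Clec12a, as in Clec7a with 952.6 and 185.7 CPM.

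Marker sums moved with this split. The 13 macrophage genes summed to 16002 and 17684 CPM in late libraries, against 15657 and 8343 CPM in early replicates 1 and 2. The 10 monocyte genes summed to 3080 and 2592 CPM late, against 2727 and 4703 CPM early. The 18 output genes, which Syk and Card9 can drive, summed to 7638 and 5013 CPM late, against 3223 and 9225 CPM early. Il1b alone had 1299.8 and 865.1 CPM late, against 323.3 and 2646 CPM early. LPS raised Il1b and Nos2 of this list in WT BMDCs, so the sum does not measure signalling through the lectins. Neutrophil genes stayed low, at 310 and 77 CPM late, against 32 and 93 CPM early, with Ly6g at 0 in 3 of the 4 libraries. NK cell genes summed to 186 and 57 CPM late, against 1074 and 574 CPM early, and fibroblast genes to 262 and 80 CPM late, against 1023 and 405 CPM early. Their part in the lectin values was not tested. None of the adaptor, axis, inhibitory, output, regulator or other lectin genes was called between late and early tumors by edgeR. Of these 89 genes 9 had an unadjusted p under 0.05, beside 11% of all genes tested. DESeq2 called 1 of the 89 and limma-voom 0. The smallest p in these lists by edgeR was that of Klrk1, an NK cell receptor (log2 fold change -1.52, adjusted p = 0.113).

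**Figure D4:**
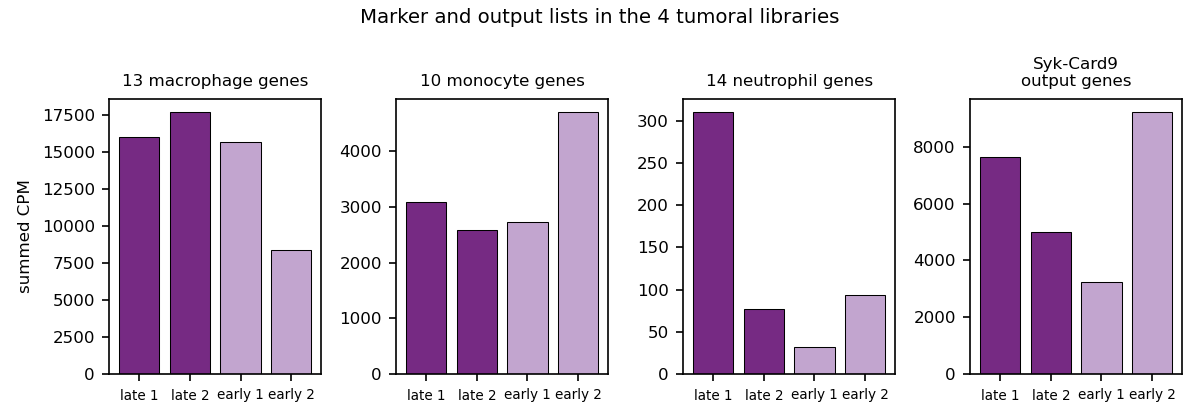
Summed CPM (y axis, starting at 0) of 4 gene lists in each tumoral library, 1 bar a library, with late left of early. Early replicate 2 has the lowest macrophage sum (8343 CPM) and the highest monocyte and output sums (4703 and 9225 CPM) of the 4 libraries.

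Across all 6 groups, levels were higher in tumoral DCs than in BMDCs. The tables are separate experiments whose cell source, culture and processing cannot be told apart, so this is a description with no test. The median over the 4 tumoral libraries was 8.86 times that over the 8 BMDC libraries for Clec4a2, 6.22 times for Clec12a, 5.72 times for Clec4a3, 4.71 times for Clec4a1 and 4.45 times for Clec5a, with no overlap between libraries. It was 3.01 times for Clec4n, 2.69 times for Clec4e, 2.38 times for Clec4d and 2.33 times for Clec7a, with overlap. The order of groups differed by gene. For Clec4e, early and late tumoral DCs came first and overlapped, then WT BMDCs with LPS and unstimulated knockout-labelled BMDCs, which also overlapped, while early replicate 1 lay below them at 77.4 CPM. Next came knockout-labelled BMDCs with LPS and then unstimulated WT BMDCs, each apart from its neighbour. For Clec4d, late tumoral DCs came first. The BMDC groups followed without overlap between neighbours, in the order unstimulated WT, unstimulated knockout label, WT with LPS and knockout label with LPS. Early tumoral DCs, at 44.3 to 153.3 CPM, had the next highest mean but spanned all BMDC groups other than the knockout label with LPS. For Clec7a and Clec12a each BMDC group overlapped the next in order, and so did the groups of Clec4n apart from the highest and lowest, late tumoral DCs and knockout-labelled BMDCs with LPS. Clec4a1, Clec4a2, Clec4a3 and Clec5a shared the first places of tumoral DCs, followed by the mean of WT BMDCs with LPS in all 4. For Clec4a2 that mean, 19.15 CPM, was close to the 19.13 CPM of unstimulated WT BMDCs, with overlap. For Clec4a3 and Clec5a, WT BMDCs with LPS overlapped the next group, the unstimulated knockout label, but for Clec4a1 they did not.

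Levels per kilobase of annotated exons make genes comparable as far as the annotation fits the submitters'. By mean, Clec7a was highest in the 4 BMDC groups and in early tumoral DCs. The early tumoral place rests on replicate 2. Clec7a had 70.4 and 361.1 CPM per kb in early replicates 1 and 2, against 230.7 and 120.4 for Clec4a1. Clec4n overlapped Clec7a in every BMDC group other than the knockout label with LPS. In WT BMDCs with LPS Clec7a had 99.2 ± 18.2 CPM per kb and unstimulated 87.8 ± 8.87 (SD, n = 2). In late tumoral DCs Clec4n, at 208.8 ± 13.7 CPM per kb, and Clec7a, at 199.6 ± 56.0, overlapped (SD, n = 2). Clec5a was lowest in all 6 groups, at 12.2 CPM per kb on average in late tumoral DCs and 1.32 in unstimulated WT BMDCs. Clec4e had a mean of 12.8 CPM per kb in knockout-labelled BMDCs with LPS, against 19.8 in WT with LPS, and of 18.9 in the unstimulated knockout label, against 5.20 in unstimulated WT.

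To show which genes had the most similar pattern, log2 CPM was centred within each table and the root mean square difference over the 12 libraries was computed to each of 9060 genes. Closest to Clec4e were Vcan, a matrix proteoglycan, at 0.341, F10, a coagulation factor, at 0.349 and Cd14, the LPS co-receptor, at 0.367, against a median of 0.944 over all genes. Closest to Clec4d were P2ry2 at 0.272, Sh2b2 at 0.278 and Gadd45a at 0.299 (median 0.720). For Clec4n they were Arg2 at 0.407, Cxcl2 at 0.434 and Cd9 at 0.437 (median 0.778), with Clec4d next at 0.438. For Clec7a they were Ankrd33b at 0.291, Lilr4b at 0.303 and Btg1 at 0.318 (median 0.628). Spsb1 at 0.212, Insl6 at 0.234 and Rnf149 at 0.236 were closest to Clec5a (median 0.597).

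In the DCIR group the differences were smaller, since these genes varied less. Clec4a1 was closest to Cep41 at 0.172, Rcn1 at 0.181 and Limd2 at 0.184 (median 0.434), with Clec4a3 at place 8 (0.207). Clec4a2 was closest to Sh3bp2 and Lrrc25, both at 0.189, and Cpped1 at 0.200 (median 0.415). Clec4a3 was closest to Frmd4b at 0.157, Slc35d2 at 0.168 and Casp1 at 0.171 (median 0.379). The nearest gene to Clec12a was Clec4a3 at 0.190, followed by Casp1 at 0.191 and Hk3 at 0.207 (median 0.398). The convergent neighbours Clec4d and Clec4e differed by 1.007, which put Clec4e at place 8606 of 9060 by likeness to Clec4d. These values share libraries and depth and carry no test.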

How the data were processed

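Per the labels' protocols, total RNA went into Illumina TruSeq libraries; the extraction text speaks of another tissue. The values are raw counts per gene symbol as deposited by the authors, 1 table for tumoral DCs and 1 for BMDCs. Per the submitters' processing notes, fastp 0.12.4, HISAT2 2.2.1, featureCounts 2.0.1 and mm10 were used. The sources used here do not give the annotation, the strand setting or the treatment of multi-mapping reads, so overlapping genes may share reads. All columns were mapped to samples by name, and 0 were left over.

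Each table was fitted alone in R 4.3.3 with edgeR 4.0.16 (filterByExpr with a minimum count of 10, TMM, glmQLFit robust, glmQLFTest, Benjamini-Hochberg over all genes tested, called at an adjusted p under 0.05): 4 tumoral libraries, and 8 BMDC libraries with a mean per group. The tests kept 13040 and 13072 genes and 99.89 to 99.95% of counts. Biological coefficients of variation were 0.278 (tumoral) and 0.138 (BMDC). The SE is the log2 fold change divided by the root of F. DESeq2 1.42.0 and limma-voom (limma 3.58.1), other scalings, no filter, the compared groups alone, a replicate block and each library left out were alternatives. The steps were tested on simulated counts. Likeness used log2 CPM (prior count 2) and genes averaging at least 2.

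The members, the pathway and marker lists and the tests were chosen with earlier results of these data known. Named are all members, Pde5a, Fcer1g, Tyrobp, Syk and Card9, for each list and comparison the 2 called genes of smallest adjusted p per direction (with 0 called, the gene of smallest p over the lists), the 3 genes most like each member, and called genes between members. Marker genes, Tnf, Hif1a, Il6, Flt3 and C1qa named outside that rule were chosen after their values were seen, as were Cebpb, Mrc1 and Olr1 where the rule does not give them. A gene that the rule gives for the interaction is not reported here.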

Additional observations from a re-analysis of the deposited data

Results flagged for a closer look

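The LPS effect differed between the genotype labels, by the interaction term of edgeR, for Clec4e (-2.62 on the log2 scale, knockout label minus WT). It also differed for 6 of the 86 tested genes of the pathway lists, none of them a lectin, beside 4.48% of all genes. Among these were the output genes Nos2 (-7.07), Il1b (-3.97) and Il6 (-2.44) and the regulators Cebpb (-1.04) and Hif1a (-0.99). For Clec4e the level was 63.7 ± 13.1 CPM with LPS and 93.8 ± 10.1 CPM without under the knockout label, and 98.4 ± 16.5 CPM with LPS and 25.8 ± 7.05 CPM without in WT (SD, n = 2 each). For Il1b all 6 libraries other than unstimulated WT lay between 466.4 and 687.6 CPM, against 44.5 and 41.7 CPM in unstimulated WT. Groups of 2 libraries were too small for a check of single outlying libraries.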

How the results depend on the processing

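With 2 libraries a group, counts of calls moved with the setting. Clec4e stayed called in all 15 alternatives for LPS in WT (1.90 to 2.42), all 15 for the unstimulated knockout label (1.73 to 2.25) and all 14 for the interaction (-2.91 to -2.39). Members called with 1 library left out numbered 0 to 5 for late against early, 3 to 5 for LPS in WT, 0 to 1 for LPS under the knockout label, 1 to 2 for the unstimulated knockout label, 1 to 2 for the interaction and 1 to 2 for the average. For LPS under the knockout label, DESeq2 size factors, library size alone, no filter, DESeq2 and the replicate block each called 1 member, Clec4d. For the unstimulated knockout label, where 2 are reported, the compared groups alone called 1, while DESeq2, limma-voom and the replicate block (each adding Clec4a1) and library size alone (adding Clec4d) called 3. For LPS in WT, library size alone called 4 of the 5. For the knockout label with LPS, no filter and DESeq2 each called 1, Clec4d. For the interaction, no filter called 3, DESeq2 4 and the replicate block 2. Of 882 member values under alternatives, 34 changed sign, 17 lost and 32 gained a call; the causes were not tested.

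Sign changes between late and early were 0.23 for Clec4e and 0.40 for Clec7a, both with limma-voom and with the replicate block, and -0.052 for Clec4a2 with library size alone. Clec12a under the unstimulated knockout label had -0.0021 with DESeq2 size factors, -0.11 with library size alone, -0.0015 with DESeq2, -1.3e-05 with limma-voom and -0.0081 with the compared groups alone. With 1 library left out, ranges that crossed 0 were, for late against early, -1.07 to 1.67 (Clec4e), -0.85 to 1.70 (Clec7a), -0.51 to 0.23 (Clec4a1), -0.20 to 0.43 (Clec4a2) and -0.38 to 0.055 (Clec4a3). For LPS in WT they were -0.25 to 0.91 (Clec4n) and -0.072 to 0.57 (Clec4a2), and for LPS under the knockout label -0.37 to 0.19 (Clec7a) and -0.67 to 0.22 (Clec12a). For the unstimulated knockout label they were -0.59 to 0.57 (Clec4n), -0.48 to 0.16 (Clec4a2), -0.16 to 0.092 (Clec7a) and -0.24 to 0.24 (Clec12a). For the average they were -0.054 to 0.28 (Clec4a1) and -0.26 to 0.0009 (Clec4a3).

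Counts over all genes ranged from 0 to 1063 for late against early (3 as reported), 2676 to 5417 for LPS in WT (4910), 0 to 793 for LPS under the knockout label (0), 593 to 2717 for the unstimulated knockout label (2357), 0 to 150 for the knockout label with LPS (0), 58 to 1076 for the interaction (585) and 392 to 2290 for the average (1446). Library size alone moved the median of all genes to -0.1149 for the unstimulated knockout label and 0.1191 for the interaction. The labels do not say that a replicate number marks a shared animal or day. Deviations of replicate 1 from its group's mean, in log2 CPM, correlated between groups at -0.2 to 0.275 in BMDCs and -0.0379 in tumoral DCs. These correlations cannot show whether same-numbered libraries were paired. The replicate block called 173 genes for late against early, 321 for LPS under the knockout label and 516 for the interaction.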

Other observations

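Genes of other DC subsets were also called in the same BMDC libraries. With LPS in WT, 37.6% of all genes tested were called, 20.0% higher and 17.6% lower. List counts near these shares say nothing particular about a list. Of 10 genes of conventional type 1 DCs, 8 fell and 2 rose with LPS in WT BMDCs (edgeR, adjusted p under 0.05). Those that fell included Xcr1, a chemokine receptor (log2 fold change -2.02), Tlr3 (-2.03) and Wdfy4, which cross-presentation needs (-2.79), and those that rose were the transcription factors Irf8 (0.66) and Batf3 (0.44). Under the unstimulated knockout label 5 of the 10 were lower and 1 higher, beside 5.98% and 12.0% of all genes. Of 9 tested genes of conventional type 2 DCs, 4 fell with LPS in WT, among them the lectin gene Clec10a (-3.72), and 0 rose. Of 10 core DC genes 2 rose and 5 fell, of 9 plasmacytoid DC genes 2 rose and 2 fell, and of 7 mast cell and basophil genes 2 rose. T cell and NK cell lists had 1 gene each higher, the B cell list 1 lower, and the fibroblast list 0 called. Between late and early tumors, the T cell list had 1 gene of 9 lower, beside 0.0230% of all genes called in either direction.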
